A study of Homo sapiens with 6 samples.

Results

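PPARG encodes a nuclear receptor that directs fat cell formation, and it was examined together with 9 genes of lipid storage that are known as its partners or targets: FABP4, CD36, PLIN1, PLIN2, ANGPTL4, CEBPA, CEBPB, LPL and PPARGC1A. These 10 genes of the 58051 in the table were chosen by name. PPARG was selected for its higher normalized count in A2780-ADR than in A2780 in these same samples, and the others were added to ask whether that gain goes with its known targets. For all 10 genes the comparison between the lines is therefore given as a description, with no p-value. Of the 10, 5 were abundant enough for the test across genes, which took a mean normalized count of 10 or more (PPARG, PLIN2, ANGPTL4, CEBPA and CEBPB), and PPARG reached it through the A2780-ADR samples alone. The other 5 (FABP4, CD36, PLIN1, LPL and PPARGC1A) stayed under it and are given as reads.

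A2780 is a human ovarian cancer cell line that is sensitive to doxorubicin, and A2780-ADR is its derivative with resistance to doxorubicin (adriamycin) and other drugs. Both lines were purchased and were grown in the same serum-containing medium, and no drug treatment of the sequenced samples is stated. From each line 3 samples were profiled by RNA sequencing of polyadenylated RNA. Samples of a line are described as independent, though separate cultures are not named, and a p-value here reflects the variation among these 6 libraries, part of which may be technical. Each line is a single lineage, and what belongs to drug resistance cannot be told apart from any other difference between the 2 lines. The 6 libraries held 27775745 to 30513366 reads in genes, and mitochondrially encoded genes took 5.54% to 6.36% of them. Of 10 markers of ovarian carcinoma, 4 passed the filter and KRT7 had 0 reads. Their summed normalized count was 294 to 326 in A2780 and 12360 to 13800 in A2780-ADR, where KRT8 and KRT18 made up nearly all of it, while PAX8, WT1 and MUC16 averaged at most 1.41 in A2780 and at most 15.3 in A2780-ADR.

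In fat cell precursors, as worked out mainly in mouse cells, CEBPB is switched on early and activates CEBPA and PPARG, which then sustain each other. PPARG binds DNA as a pair with a retinoid X receptor, at direct repeats of the letters AGGTCA separated by a single base, and is activated by fatty acids and by the thiazolidinedione drugs. Its best known targets in fat cells take up fatty acids (LPL, CD36), carry them (FABP4), coat the lipid droplet (PLIN1) or act on blood lipids (ANGPTL4), and PPARGC1A is a coactivator that brings in the machinery of transcription. PPARG is also found outside fat, among other places in macrophages and in the lining of the bladder.

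PPARG itself lies on chromosome 3 (12287368 to 12434356 of GRCh38, plus strand). Its normalized count was 0, 0 and 1.06 in the A2780 samples and 1189, 1149 and 1216 in the A2780-ADR samples. The lines were thus fully separated, with a single read in all A2780 samples and 3714 reads in A2780-ADR. The ratio of these reads, scaled to depth, was 3451 (exact 95% counting interval 619 to 136300), and intervals of this kind cover counting error only. On the scale of log2(normalized count + 1), which understates the change of a gene near 0, the difference was 9.86 ± 0.27 (SE, n = 3 per line). Per kilobase of exon, the level of PPARG in A2780-ADR averaged 261 normalized counts, at the 71.2 percentile of the genes tested.

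**Figure D1:**
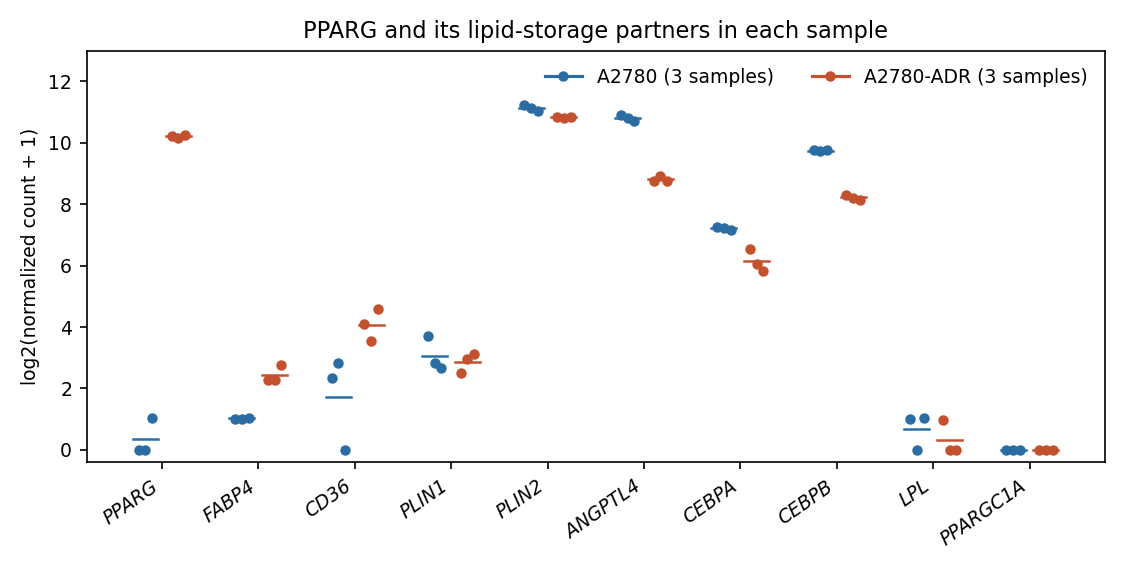
Normalized counts of the 10 genes on the log2(normalized count + 1) scale, with a point for each of 3 A2780 (blue) and 3 A2780-ADR (orange) samples and a line at the mean of each line on this scale. PPARG goes from 0, 0 and 1.06 to 1149 to 1216, ANGPTL4, CEBPA and CEBPB are lower in every A2780-ADR sample, and FABP4, CD36, PLIN1, LPL and PPARGC1A stay near the bottom of the plot in both lines.

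The transcription factors that work with PPARG did not follow it. CEBPB, the early inducer, was at 863, 848 and 869 in A2780 and at 316, 294 and 283 in A2780-ADR. Its levels did not overlap between the lines, and the log2 fold change was -1.53 ± 0.07 (SE). CEBPA, the partner that maintains the fat cell state, was at 151, 148 and 144 in A2780 and at 91.8, 65.5 and 55.8 in A2780-ADR. It too was lower in every A2780-ADR sample, with a log2 fold change of -1.07 ± 0.17 (SE), just past the 2-fold threshold. Without A2780-ADR replicate 3, the lowest sample, its log2 fold change was -0.92 and it no longer passed. PPARGC1A, the coactivator, had 0 reads in all 6 samples, which allows up to 3 reads in each.

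Among the targets that bring in and carry fatty acids, the numbers were small in both lines. FABP4, the fatty acid carrier of fat cells and macrophages, was at 1.02, 1.02 and 1.06 in A2780 and at 3.78, 3.85 and 5.77 in A2780-ADR, which is 3 reads against 14. The samples did not overlap and the read ratio was 4.34 (exact 95% interval 1.21 to 23.5), yet its level per kilobase in A2780-ADR was only 3.20 normalized counts beside the 261 of PPARG. CD36, a scavenger receptor that takes up fatty acids, was at 4.07, 6.11 and 0 in A2780 and at 16.1, 10.6 and 23.1 in A2780-ADR. That made 10 reads against 52, again without overlap, with a ratio of 4.83 (2.43 to 10.7). Its mean over the 6 samples was 9.99, just under the filter. It averaged 3.39 in A2780 and 16.6 in A2780-ADR, so it could reach the filter only through the line where it is higher. When totals or TMM set the scaling, or when any A2780 sample was left out, it entered the test and was called higher (log2 fold change 1.49 to 2.90). Leaving out a low A2780 sample raises the mean by itself, so these calls are a description only. LPL, the lipase that frees fatty acids from blood triglycerides, had 2 reads in A2780 and 1 in A2780-ADR and was not detectable as different at this depth.

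CD36 and FABP4 are also expressed by macrophages, and CD36 by endothelium, so the markers of these cells are given beside them. The 12 macrophage markers summed to 51.9 to 66.5 normalized counts in A2780 and 1044 to 1082 in A2780-ADR. TYROBP, an immune adaptor, went from 26.1 to 579 and MRC1, a mannose receptor, from 8.20 to 396, whereas PTPRC, CD14, CD68 and CSF1R averaged at most 2.88 in either line. The 10 endothelial markers summed to 28.5 to 48.9 and 106 to 122, with EMCN at 0, and PECAM1, VWF and CDH5 averaged at most 2.87. The 15 fat cell markers summed to 1252 to 1429 and 1736 to 1826, a sum that mixes genes that rose and fell. Of the 6 tested, 3 were called higher (PLIN4, AQP7 and GPD1) and 2 lower (LIPE and SLC2A4), with values given below. The shares over all genes were 13.2% and 14.4%. Among the 15, ADIPOQ (adiponectin) had 1 read in A2780 and 0 in A2780-ADR, and LEP, PCK1, RETN and ADRB3 had 0 reads in all samples. The part of other cells in these values was not tested.

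The droplet coat genes among the members split by abundance. PLIN1, the coat protein of fat cell droplets, was at 12.2, 6.11 and 5.28 in A2780 and at 4.73, 6.74 and 7.70 in A2780-ADR. The lines overlapped, with 23 and 20 reads (ratio 0.808, exact 95% interval 0.421 to 1.54). PLIN2, which coats droplets in most cell types, was at 2411, 2232 and 2078 in A2780 and at 1838, 1784 and 1845 in A2780-ADR. Every A2780-ADR sample was lower, by a log2 fold change of -0.30 ± 0.06 (SE), which is short of 2-fold. ANGPTL4, a secreted inhibitor of LPL and a target of all the PPAR receptors, was at 1921, 1777 and 1691 in A2780 and at 433, 486 and 431 in A2780-ADR. Among the 5 members tested this was the largest difference after that of PPARG, and in the opposite direction, -2.00 ± 0.07 (SE). Exon bases of ANGPTL4 and CEBPB are shared with opposite-strand genes, RAB11B-AS1 (44.9 normalized counts in A2780 and 47.2 in A2780-ADR) and CEBPB-AS1 (43.2 in A2780 and lower in A2780-ADR), and the strand setting of the counting is not known.

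Of the 5 members tested, 1 passed the threshold (limma, adjusted p under 0.05 and more than 2-fold) in the higher direction, PPARG, and 3 in the lower direction, ANGPTL4, CEBPB and CEBPA. Over all 17005 genes tested, 13.2% were called higher in A2780-ADR, 14.4% lower and 27.6% in either direction. Since this contrast was used to choose the genes, nothing is read from the count of members beside these shares.

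PPARG can act only with a retinoid X receptor, and 2 of these were present. Per kilobase, RXRB averaged 499 normalized counts in A2780 and 334 in A2780-ADR, and RXRA 168 and 95.5. Both were lower in every A2780-ADR sample, RXRA by a log2 fold change of -0.82 ± 0.07 (SE, limma adjusted p = 5.13e-07) and RXRB by -0.58 ± 0.05 (1.32e-06), short of the 2-fold threshold. RXRG had 1 read in A2780 and 0 in A2780-ADR. Part of RXRB shares exon bases with SLC39A7 on the other strand, which averaged 4591 and 4959.

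Of the sister receptors, PPARA, which drives fatty acid oxidation in liver, fell. It was at 570, 565 and 537 in A2780 and at 187, 163 and 222 in A2780-ADR. The samples did not overlap (log2 fold change -1.55 ± 0.11 SE, limma adjusted p = 9.63e-08). PPARD, the widely expressed member, was at 729, 646 and 654 in A2780 and at 859, 818 and 780 in A2780-ADR, higher in every A2780-ADR sample by a log2 fold change of 0.28 ± 0.07 (SE, limma adjusted p = 0.00401), short of 2-fold. Per kilobase the order of the 3 in A2780 was PPARD (152), PPARA (42.2) and PPARG (0.0776), with no overlap between neighbours, and in A2780-ADR it was PPARG (261), PPARD (184) and PPARA (14.4), again with none.

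**Figure D2:**
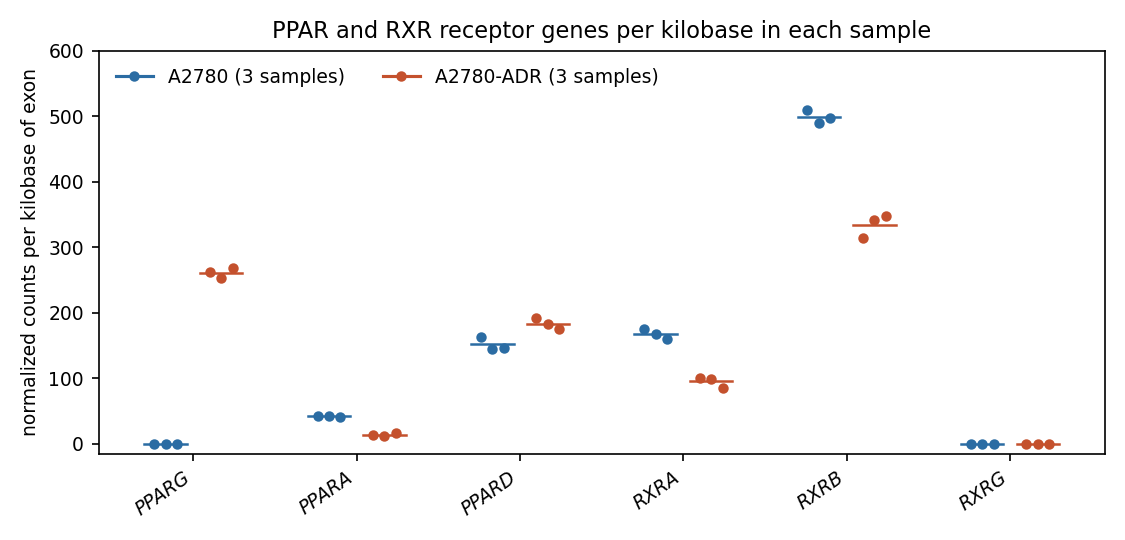
Normalized counts per kilobase of exon of the PPAR and RXR receptor genes, with a point for each sample and a line at the mean of 3 samples per line. PPARG moves from the bottom to 261, above PPARD at 184, while RXRB stays the most abundant of the 6 at 499 and 334.

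Of 24 dimer partners, relatives and coregulators of PPARG, 23 were tested, 1 rose and 5 fell, and the median log2 fold change was -0.17, beside -0.01 over all genes tested. Counts for this list and those below stand beside the 13.2% of all genes called higher and the 14.4% called lower. PRDM16, a coregulator that turns on the brown fat program, rose from 4.07, 8.15 and 4.22 to 463, 354 and 415 (log2 fold change 6.04 ± 0.24 SE, limma adjusted p = 4.89e-10). The genes that fell included PPARA, the acetyltransferase EP300 (7104 to 3287), its regulator CITED2 (-1.59) and the coactivator NCOA3 (-1.11). The most abundant regulators that did not pass the threshold were the corepressor NCOR1 (7747 and 7148), the mediator subunit MED1 (5252 and 4756) and PPRC1 (3909 and 3606).

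Factors that promote fat cell formation and factors that restrain it changed in both directions. Of 20 promoting factors, 16 were tested, 2 rose and 3 fell, with a median of -0.05. KLF5 rose from 9.31 to 152 and STAT5A from 11.0 to 79.1 on average (limma adjusted p = 1.38e-08 and 2.65e-06). EBF2, a factor of brown fat precursors, fell from 888, 900 and 882 to 0 in all 3 A2780-ADR samples, at least 930-fold lower against a floor of 3 reads over the line. KLF15 (80.5 to 17.9) and ZNF467 (2153 to 527) fell as well, while SREBF1, which turns on fatty acid synthesis, was nearly level at 4929 and 4862.

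Of 20 restraining genes, 17 were tested, 2 rose and 4 fell, with a median of -0.21. NR2F2, an orphan receptor, rose from 208 to 1291 (log2 fold change 2.63 ± 0.09 SE) and KLF2 from 19.6 to 45.6. DLK1, the classical marker of cells that have not yet become fat cells, fell from 56.0, 41.8 and 28.5 to 0 in every A2780-ADR sample, at least 44.1-fold lower against the same floor. TWIST1 (5150 to 980), HES1 (91.5 to 16.9) and DDIT3 (688 to 208) fell too. DDIT3 belongs to the C/EBP family as well, and in that list of 5 genes, which left out CEBPA and CEBPB, 4 were tested, 0 rose and 2 fell, DDIT3 and CEBPG (-1.54). The count of 0 was the same with limma, edgeR and DESeq2. When no fold threshold was set, 1 gene was higher, CEBPZ (1706 and 3183, log2 fold change 0.90). CEBPZ is on the list by its name and is not a true member of the family. CEBPD averaged 292 and 241, with overlap.

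The wider set of fat storage targets of PPARG was mixed. Of 35 listed genes besides the members, 22 were tested, 8 rose, 4 fell and 10 did not pass, and the median log2 fold change was 0.33, beside -0.01 over all genes. The share called, 54.5%, stands beside the 27.6% of all genes, and the list was chosen with earlier results of these data known, so it is given as a count only. Of the 13 genes under the filter, 5 had 0 reads in every sample, LEP and PCK1 among them.

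The 8 genes that rose were the following. PLIN4, a droplet coat protein abundant in fat cells, rose from 95.6, 78.4 and 116 to 1327, 1320 and 1283 (log2 fold change 3.76 ± 0.12 SE, limma adjusted p = 8.54e-11). PLIN5, the coat protein of oxidative tissues, rose from 51.9, 27.5 and 46.4 to 160, 158 and 163 (1.96 ± 0.21, 4.43e-06). Neither gene overlapped between the lines. PLIN4 shares exon bases with HDGFL2 on the other strand, which was lower in A2780-ADR (5165 and 3757). ACSL1, which activates long fatty acids, rose from 431, 444 and 436 to 1574, 1566 and 1564 (1.84 ± 0.06, 5.2e-11). ME1, which supplies NADPH for fatty acid synthesis, rose from 272 to 786, and FABP5, the epidermal fatty acid carrier, from 610 to 1431. The other 3 that rose, named here after their values were seen, were the lipase relative PNPLA3 (49.1 to 141), the glycerol channel AQP7 (38.1 to 96.6) and the glycerol phosphate enzyme GPD1 (10.3 to 22.7). PNPLA3 shares exon bases with SAMM50 on its own strand, and AQP7 has closely similar copies in the genome, so their counts are less certain.

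The 4 that fell included 2 lipases that break down stored fat. LIPE, hormone-sensitive lipase, fell from 479, 412 and 382 to 18.9, 34.7 and 27.9 (log2 fold change -3.95 ± 0.20 SE, limma adjusted p = 3.93e-09). PNPLA2, the lipase that starts the breakdown of triglyceride, fell from 933, 978 and 897 to 467, 501 and 403 (-1.04 ± 0.08, 3.25e-07), and without A2780-ADR replicate 3 it was at -0.95 and no longer passed. Both are known as targets of PPARG in fat cells, and here they were lower in the line with PPARG. SLC2A4, the insulin-responsive glucose transporter, fell from 246, 270 and 226 to 12.3, 9.63 and 21.2 (-4.08 ± 0.24, 1.97e-08), but its exons overlap those of YBX2 on the other strand, which fell from 1926 to 122, and the 2 cannot be told apart without the strand setting. ABCG1, a cholesterol exporter, fell from 27.1 to 12.8 (-1.03 ± 0.28), and it no longer passed with a pseudocount of 5, with equal totals, without A2780 replicate 1 or without A2780-ADR replicate 2 (log2 fold change -1.18 to -0.84 over the alternatives). SCD, the desaturase that is the most abundant gene of the list, was at 37880 and 36440 on average, with overlap.

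**Figure D3:**
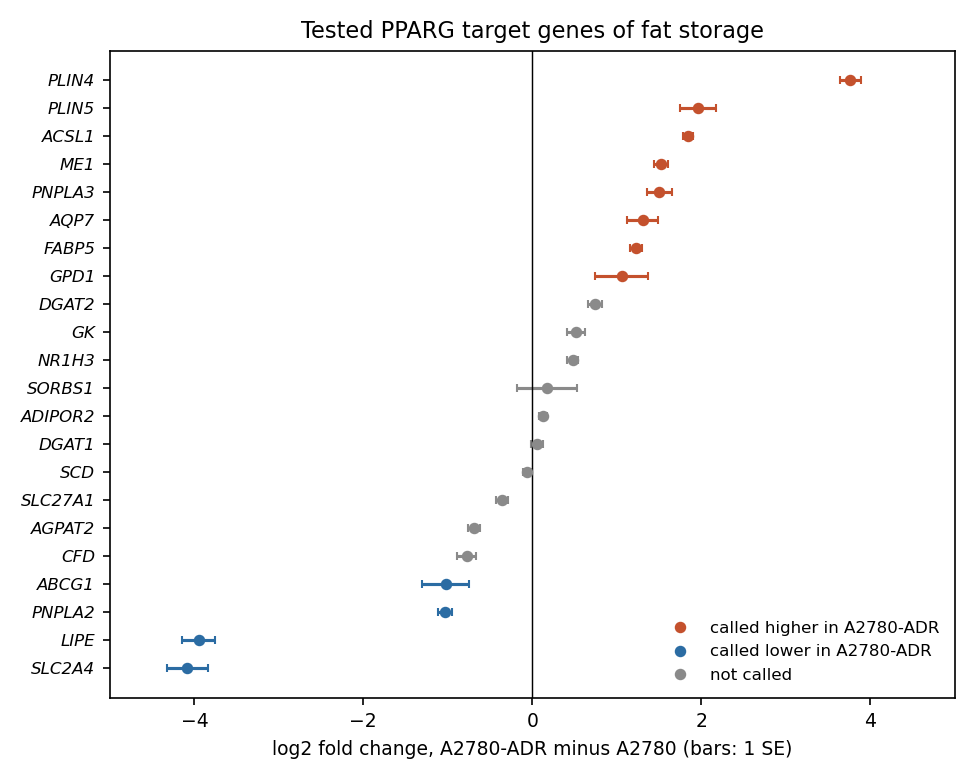
Log2 fold change (A2780-ADR minus A2780, n = 3 per line) of the 22 tested genes on the list of PPARG target genes of fat storage, with bars of 1 SE. Orange genes were called higher, from GPD1 up to PLIN4 at 3.76, blue genes were called lower, from ABCG1 down to SLC2A4 at -4.08, and grey genes did not pass.

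Other groups around these genes were likewise divided. Among 33 genes that coat, build or break down lipid droplets, 21 were tested, 3 rose (PLIN4, PLIN5 and PNPLA3) and 3 fell (LIPE, HSD17B11 and PNPLA2), with a median of 0.27. PLIN3, the coat protein of nascent droplets, averaged 1416 in A2780 and 2548 in A2780-ADR (log2 fold change 0.85 ± 0.05 SE), short of 2-fold. Per kilobase, the most abundant perilipin in A2780-ADR was PLIN3 (906), followed by PLIN2 (358), PLIN4 (201.5), PLIN5 (33.3) and PLIN1 (1.68). In A2780 the order was PLIN3 (504), PLIN2 (440), PLIN4 (14.9), PLIN5 (8.71) and PLIN1 (2.07).

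Of 29 genes of fatty acid binding, uptake and activation, 19 were tested, 5 rose and 6 fell, with a median of 0.23. CAVIN1, which shapes caveolae in fat cells, rose from 1917 to 7443, and ACSL4, which activates arachidonic acid, from 485 to 1838. The caveolins themselves went the other way: CAV1 fell from 95.6, 126 and 104 to 0, 0 and 0.962, and CAV2 from 96.6, 102 and 79.2 to 0, 0.963 and 0. Each had 1 read in A2780-ADR, against 317 and 270 in A2780. FABP9, a testis form and the tested gene nearest to FABP4, fell from 54.3 to 0 in all A2780-ADR samples, and CRABP1, a retinoic acid carrier, from 47.1 to 1.28.

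Among 29 PPAR target genes of fatty acid oxidation, 22 were tested, 2 rose and 4 fell, with a median of -0.09. TXNIP, which restrains glucose uptake, rose from 1938 to 4672. UCP2, a mitochondrial carrier, fell from 1371, 1324 and 1306 to 1.89, 0.963 and 2.89 (log2 fold change -8.89 ± 0.23 SE, limma adjusted p = 1.14e-11), and FGF21, a fasting hormone, from 112 to 1.27. CPT1B (21.6 to 7.02) and EHHADH (68.4 to 24.3) fell as well. The mitochondrial enzymes HADHA (9153 and 14930), HADHB (4591 and 7271) and ACADVL (9710 and 11940) were the most abundant and were higher in A2780-ADR by less than 2-fold.

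Around LPL, 24 partners and relatives were listed, 12 were tested, 2 rose and 3 fell, with a median of -0.10. LIPG, endothelial lipase, rose from 47.8, 48.9 and 46.4 to 971, 841 and 1206 (log2 fold change 4.35 ± 0.13 SE, limma adjusted p = 3.71e-11), while LPL was at 1 read in A2780-ADR. VLDLR, a target of PPARG in mouse fat, fell from 1598 to 78.5. LRP1 (10340 to 2757) and ANGPTL6 (56.3 to 17.6) fell. GPIHBP1, which anchors LPL on the capillary wall, had 3 and 4 reads.

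Among 22 partners of PPARGC1A and genes of mitochondrial biogenesis, 20 were tested, 1 rose (TFB1M) and 4 fell, with a median of -0.23. ESRRG, an orphan receptor that PPARGC1A activates, fell from 1280, 1312 and 1250 to 0 in all A2780-ADR samples, at least 1338-fold lower against a floor of 3 reads over the line. MEF2C (21.2 to 5.09) and FNDC5 (603 to 162) fell, as did YY1 (5030 to 2464), which was at -0.99 and no longer passed when totals were made equal.

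Of 12 bladder lining targets, 5 were tested, 2 rose and 2 fell, with a median of 0.25. UPK3B, which is also a mesothelial gene, rose from 2.06 to 85.5 and FOXA1 from 20.3 to 74.0, whereas UPK1A (768 to 298) and ELF3 (120 to 26.5) fell. Taking the 4 lists of targets, oxidation, droplets and fatty acid handling as 1, with each gene once, 73 of 111 genes were tested, 13 rose, 15 fell and 45 did not pass, a share called of 38.4%.

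The chromosome around PPARG was examined for genes with the same pattern. SYN2, which encodes a synaptic vesicle protein and ends 96.0 kb below PPARG on the same strand, was the nearest tested gene on that side. It rose from 4.07, 4.07 and 4.22 to 546, 481 and 475 (log2 fold change 6.61 ± 0.17 SE, limma adjusted p = 1.01e-11), with no overlap. TIMP4, a protease inhibitor inside the span of SYN2, was at 0 in all A2780 samples and at 3.78, 1.93 and 0.962 in A2780-ADR, and it shares exon bases with SYN2 on the other strand, so that its 7 reads cannot be told apart from those of SYN2 without the strand setting. The pseudogene GSTM5P1 between SYN2 and PPARG was at 0 and then at 3.78, 4.82 and 10.6. Genes farther out on either side were not called. TAMM41 and VGLL4 below SYN2 had log2 fold changes of -0.27 and -0.08, and MKRN2 above PPARG had -0.10. The higher counts were thus found from SYN2 to PPARG, and TAMM41 on one side and MKRN2 on the other, which are 440 kb and 123 kb from PPARG, were close to level.

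**Figure D4:**
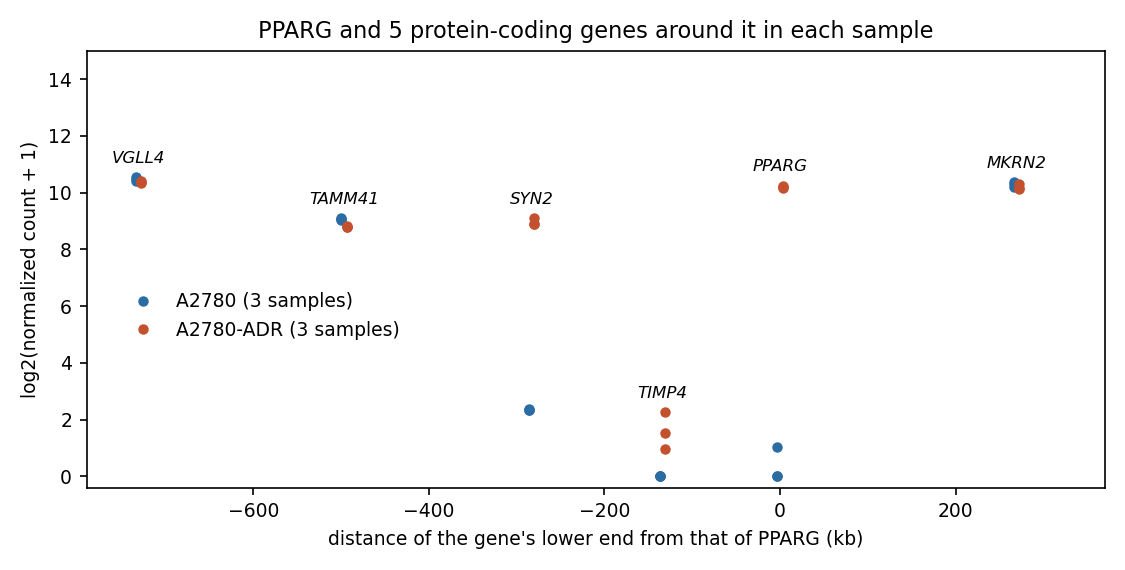
PPARG and the 5 protein-coding genes around it that are described here, placed by the distance of their lower end from that of PPARG in kilobases, with log2(normalized count + 1) in each of 3 A2780 (blue) and 3 A2780-ADR (orange) samples. SYN2 and PPARG are separated between the lines, as is TIMP4, whose 7 reads may belong to SYN2, at 4.07 to 4.22 against 475 to 546 for SYN2, while TAMM41, VGLL4 and MKRN2 lie close together in the lines.

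Neighbours of other members also differed in places. GNAI1 and SEMA3C, on either side of CD36, rose from 434 to 1140 and from 214 to 4227. Of the 6 nearest tested genes of CD36, 3 were called higher, beside 13.2% of all genes tested. The remaining called gene is a processed pseudogene 932 kb away. For the other members, 0 to 2 of the 6 nearest tested genes were called higher.

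Genes with a pattern most like that of PPARG were sought by the distance between log2(normalized count + 1) values over the 6 samples. The 5 nearest were TCEAL8 (distance 1.19), HOXC11 (1.23), SAMD5 (1.61), MAP3K21 (1.76) and HOXC13 (1.81). TCEAL8 was at 0 in every A2780 sample and at 905, 934 and 984 in A2780-ADR, and HOXC11 at 0, 1.02 and 2.11 and then at 1043, 1013 and 1010. They lie on other chromosomes than PPARG and none is on the lists above.

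Promoter sequence was taken from RefSeq (GRCh38.p14), as the 250 bases before each annotated start, and 8 of the 10 members were searched, with 20 windows, while FABP4 and LPL were not searched. Sites were searched on both strands as AGGTCA, as 2 copies of AGGTCA with any single base between them and at most 2 mismatches, and as TTGCNNAA for the C/EBP factors, where N is any base and an exact repeat would hold the core site within it. Over 35116 windows of this length in the genome, 12.1% held the core site, 2.57% the repeat and 9.05% the C/EBP site. A match describes letters only, and no binding was measured.

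The core site was in 3 windows of the members, all of PPARG and with 2 of them overlapping, the repeat in 1, a window of CD36, and the C/EBP site in 3, those of PLIN1, PPARGC1A and the last start of PPARG. Of the 75 list genes of targets, oxidation, droplets and fatty acid handling with windows, 8 held a repeat in 8 of 109 windows. Over the genome, 3.14% of genes and 2.57% of windows held it. ACSL1 and AQP7 were the ones of these list genes that rose, while PLIN4, PLIN5, ME1 and ACSL4 rose without a repeat in their windows. A link between the repeat and the change in level was not tested. PLIN2, ANGPTL4, CEBPA and CEBPB had none of the 3 kinds of site. The 4 windows below were picked as examples that hold a site: the first start of PPARG, its last start, which begins the isoform of fat cells, the CD36 window and an ACSL1 window. They lie at chr3:12287118-12287367, chr3:12351167-12351416, chr7:80638266-80638515 (plus strand) and chr4:184805554-184805803 (minus strand), each is written 5′ to 3′ along its gene, and capitals mark the sites. The core sites of the first PPARG window begin 217 and 184 bases before the start, the C/EBP site of its last window 80, and the repeats of CD36 and ACSL1 147 and 114, both on the opposite strand with 2 mismatches.
PPARG, first start: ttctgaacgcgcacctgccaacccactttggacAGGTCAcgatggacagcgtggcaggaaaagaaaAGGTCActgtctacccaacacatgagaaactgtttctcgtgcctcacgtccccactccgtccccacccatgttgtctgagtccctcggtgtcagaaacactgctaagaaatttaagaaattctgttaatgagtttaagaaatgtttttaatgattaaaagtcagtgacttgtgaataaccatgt
PPARG, last start: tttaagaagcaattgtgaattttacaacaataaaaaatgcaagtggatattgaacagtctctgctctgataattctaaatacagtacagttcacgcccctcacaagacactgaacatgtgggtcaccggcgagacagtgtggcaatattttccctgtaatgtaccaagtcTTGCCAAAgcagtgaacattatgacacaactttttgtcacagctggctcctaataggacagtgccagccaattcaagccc
CD36: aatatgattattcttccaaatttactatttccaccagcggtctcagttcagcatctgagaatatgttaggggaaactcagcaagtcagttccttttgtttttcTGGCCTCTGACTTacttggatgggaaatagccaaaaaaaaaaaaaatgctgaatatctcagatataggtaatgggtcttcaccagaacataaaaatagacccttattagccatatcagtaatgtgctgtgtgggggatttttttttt
ACSL1: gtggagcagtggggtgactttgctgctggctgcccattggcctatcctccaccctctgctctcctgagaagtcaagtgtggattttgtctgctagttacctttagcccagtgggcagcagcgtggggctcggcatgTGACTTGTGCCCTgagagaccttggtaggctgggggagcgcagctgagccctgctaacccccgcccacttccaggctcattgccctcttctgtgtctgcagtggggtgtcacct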

How the data were processed

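RNA was isolated from cultured A2780 and A2780-ADR cells with the Qiagen miRNeasy kit, and libraries were made with the TruSeq Stranded mRNA kit. The authors normalized gene read counts with DESeq, so the deposited signal values are normalized counts, and STAR, HTSeq and GRCh38 are listed in the submitters' processing notes. The sources used here do not give versions, annotation release or strand setting. Values above 0 were whole multiples of a single read in 100% of cases (within 0.01), which gave back the reads. The cell line label set the groups, and 0 columns had no sample.

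For 17005 genes with a mean of at least 10, limma 3.58.1 (trended variances, R 4.3.3) was run on log2(normalized count + 1), with Benjamini-Hochberg adjustment, and called at an adjusted p under 0.05 and more than 2-fold. The comparison was tested on simulated data. Names, exon lengths and positions came from GENCODE 29, which named 57447 of 58051 genes. With 3 samples per line, the smallest p of an exact permutation test is 0.1. Replicate pairs of a line differed by 2.14 to 7.80 in chi-square per degree of freedom, more than counting noise, so none was the same library deposited again. On the recovered reads, edgeR 4.0.16 (quasi-likelihood) called 4748 genes and DESeq2 1.42.0 called 4694, beside 4688 with limma.

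The members and the gene lists, which come from general knowledge, were chosen with earlier results of these data known. Genes named are the members, up to 4 called higher, 4 called lower and 3 abundant uncalled genes of each list, the receptors and lipid genes fixed by name, the 3 nearest tested genes on each side of PPARG and the 5 nearest to it in pattern. TIMP4, GSTM5P1, GNAI1, SEMA3C, AQP7, GPD1, EP300, the marker genes and genes sharing exon bases with named genes were added after their values were seen, and a few genes that the rule names are not reported here. Alternatives were pseudocounts of 0.5 and 5, no filter, a mean of at least 50, equal totals, TMM, both count tests, a replicate block, each sample left out and no fold threshold.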

Additional observations from a re-analysis of the deposited data

How the results depend on the processing

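No called member, and no called list gene named by the rule, changed direction under an alternative. SREBF1, which was not called, lay between -0.04 and 0.02. Without a fold threshold, 6013 genes were called higher and 6197 lower, without a filter 3512 were higher, and with a mean of at least 50 1400 were higher and 1555 lower, as fewer or more genes could pass. Members called higher were 3 without a filter (PPARG, CD36 and FABP4) and 2 with equal totals or TMM (PPARG and CD36), and 1 to 2 with each sample left out, because CD36 lies at the filter. CD36 reaches the filter only through the A2780-ADR samples, where it is higher, so these counts are a description only. The log2 fold change of PPARG was 10.66 and 7.80 with pseudocounts of 0.5 and 5, 11.32 with edgeR and 11.65 with DESeq2, since A2780 held a single read. Without a fold threshold the lists gave 5 higher and 12 lower (coregulators), 3 and 6 (promoting factors), 4 and 9 (restraining genes) and 12 and 7 (fat storage). In the same order they gave 9 and 11 (oxidation), 10 and 5 (droplets), 10 and 8 (fatty acid handling) and 4 and 6 (around LPL). The last lists gave 1 and 2 (C/EBP), 5 and 11 (PPARGC1A partners) and 2 and 2 (bladder lining). For the other filters, only the larger changes in list counts are given. Without a filter 4 restraining genes, 5 droplet genes and 4 genes around LPL were higher. With a mean of at least 50, 1 promoting and 1 restraining gene were higher, 2 oxidation and 2 fatty acid genes lower, and 0 bladder lining genes higher.

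The replicate numbers of the labels did not pair the samples: deviations from the line means correlated at 0.004, -0.016 and 0.077 between equal numbers. The replicate block gave 2246 genes higher and 2444 lower and changed no call of a member. Depth limits FABP4, CD36, PLIN1, LPL and PPARGC1A, which had at most 52 reads in a line, and with 3 samples of a single lineage per line no spread between independent lines was measured.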
